A study of Mus musculus with 48 samples.

Results

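The RNA of 10 genes of the response to low oxygen (Hif1a, Vegfa, Adm, Slc2a1, Pdk1, Car9, Bnip3, Egln3, Ankrd37 and Ndrg1) was followed from mouse liver to isolated hepatocytes, cultured liver spheroids and spheroids engrafted in the eye. The genes were chosen by name, as textbook members of this response, with earlier results of these data known. The shares of all genes set beside their calls are therefore description only. They are 10 of the 46517 genes in the tables. All 10 passed the filter on low counts that left 17064 genes for the tests. The samples were 3 livers, 3 hepatocyte-enriched cell preparations from liver perfusion, 2 samples of spheroids cultured from such cells, 3 irises without a graft and 5 explants, which carry the numbers 1, 2, 4, 5 and 6. An explant is the spheroids of an eye taken out 2 months post-tx (after transplantation into the anterior chamber of the eye), together with the iris around them, so its RNA comes from both tissues. All mice were labelled C57BL/6N WT Albino, and no label names a drug or a set oxygen level. The study's methods name Albino B6/J mice and no C57BL/6N, so the substrain is uncertain. The study's methods describe spheroid culture in medium with insulin and dexamethasone, and give no oxygen level for it. The labels do not say whether samples of a group came from separate animals, and the study's reporting summary gives its RNA-seq sample size in animals without tying samples to them, so the p-values measure the spread between these samples. In bulk RNA, fewer cells of a type and less RNA per cell cannot be told apart.

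Cells sense oxygen through the prolyl hydroxylases, which mark the alpha subunits of hypoxia-inducible factor (HIF) for degradation by the von Hippel-Lindau protein while oxygen is present. When oxygen falls, HIF-1alpha, the product of Hif1a, is stabilised, pairs with ARNT and activates genes for glucose uptake, glycolysis, vessel growth and the turnover of mitochondria. In liver, oxygen declines along the sinusoid from the portal tract to the central vein, and hepatocytes lose this supply when they are isolated.

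Promoters are shown for the members that passed a test in spheroids or in corrected explants, because several of them fell together in spheroids. The windows are RefSeq sequences of GRCm38.p6 that run from 250 bases before to 50 bases after the annotated start, 5′ to 3′ on the strand of the gene, and 9 of the 10 genes matched one (Ndrg1 did not). Capitals mark the core of the HIF-responsive element, ACGTG or GCGTG, on either strand (CACGT or CACGC where it lies on the opposite strand), and matches to the 2 forms on opposite strands can overlap. The windows shown are chr12:54203825-54204124 (minus strand) for Egln3, chr2:71872974-71873273 (plus) for Pdk1, chr17:46032328-46032627 (minus) for Vegfa, chr8:45999801-46000100 (minus) for Ankrd37, chr4:43506776-43507075 (plus) for Car9, chr4:119108495-119108794 (plus) for Slc2a1 and chr7:138909457-138909756 (minus) for Bnip3.
Egln3: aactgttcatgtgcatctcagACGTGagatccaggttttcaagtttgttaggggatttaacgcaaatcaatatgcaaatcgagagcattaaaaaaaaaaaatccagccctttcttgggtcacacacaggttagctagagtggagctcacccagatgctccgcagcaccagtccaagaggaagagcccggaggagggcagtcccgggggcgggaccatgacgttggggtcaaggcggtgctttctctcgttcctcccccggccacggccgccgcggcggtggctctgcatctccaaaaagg
Pdk1: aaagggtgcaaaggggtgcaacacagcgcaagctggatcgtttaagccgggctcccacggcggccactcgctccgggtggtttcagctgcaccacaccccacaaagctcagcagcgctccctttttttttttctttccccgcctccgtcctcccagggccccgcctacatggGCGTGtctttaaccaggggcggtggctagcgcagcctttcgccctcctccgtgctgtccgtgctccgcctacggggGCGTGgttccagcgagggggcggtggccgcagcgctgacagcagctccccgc
Vegfa: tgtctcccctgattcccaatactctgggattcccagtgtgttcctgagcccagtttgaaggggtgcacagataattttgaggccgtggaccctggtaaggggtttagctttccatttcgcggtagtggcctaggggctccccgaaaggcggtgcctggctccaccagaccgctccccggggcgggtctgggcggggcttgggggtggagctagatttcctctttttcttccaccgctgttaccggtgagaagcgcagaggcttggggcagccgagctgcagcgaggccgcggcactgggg
Ankrd37: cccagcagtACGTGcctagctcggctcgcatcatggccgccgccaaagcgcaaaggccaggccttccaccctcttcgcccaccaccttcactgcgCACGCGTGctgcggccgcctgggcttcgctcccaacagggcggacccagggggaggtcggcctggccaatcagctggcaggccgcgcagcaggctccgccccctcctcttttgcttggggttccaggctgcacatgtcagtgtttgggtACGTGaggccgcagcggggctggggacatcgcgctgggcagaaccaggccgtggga
Car9: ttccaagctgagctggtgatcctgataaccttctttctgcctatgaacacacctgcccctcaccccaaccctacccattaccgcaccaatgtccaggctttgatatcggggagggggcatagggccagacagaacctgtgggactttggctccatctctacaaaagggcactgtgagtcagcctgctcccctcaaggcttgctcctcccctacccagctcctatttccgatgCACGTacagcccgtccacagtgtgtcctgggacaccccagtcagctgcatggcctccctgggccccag
Slc2a1: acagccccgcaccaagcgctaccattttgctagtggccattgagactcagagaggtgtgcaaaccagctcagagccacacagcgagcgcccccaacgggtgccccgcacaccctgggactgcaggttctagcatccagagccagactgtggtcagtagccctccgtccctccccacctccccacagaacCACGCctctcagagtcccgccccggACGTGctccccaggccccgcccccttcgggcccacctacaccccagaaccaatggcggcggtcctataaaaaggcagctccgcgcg
Bnip3: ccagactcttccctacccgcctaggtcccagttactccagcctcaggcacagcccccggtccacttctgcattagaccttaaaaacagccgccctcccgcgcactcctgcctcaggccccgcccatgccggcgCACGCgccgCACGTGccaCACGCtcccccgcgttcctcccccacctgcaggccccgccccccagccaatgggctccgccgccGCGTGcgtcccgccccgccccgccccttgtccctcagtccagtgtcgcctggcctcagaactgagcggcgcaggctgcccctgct
The 9 genes had 11 windows, of which 9 held at least one core, one in each gene, and 43.8% of all 32851 promoter windows held one too. Bnip3 had the most matches, 5, from 117 bases before its start to 31 bases before it, and 8.93% of all windows held 3 or more. The window at the annotated start of Vegfa held none. A second Vegfa window, 7214 bases further into the gene, held 2 (not shown). A second Pdk1 window, 1680 bases into the gene, held none. These letters describe the windows only, and binding was not measured. The members without a window shown are Hif1a (chr12:73901375-73947530, plus strand), Adm (chr7:110627661-110629820, plus) and Ndrg1 (chr15:66929321-66969640, minus) in GRCm38, and all 10 members are protein-coding genes.

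Transcript levels are given first as TPM, a measure of transcript share scaled for exon length, as the authors calculated them before any correction for iris. The summed TPM of 10 hepatocyte markers such as Alb and Ttr lay between 13018 and 16874 in livers, hepatocytes and spheroids, and the markers of iris and pigment epithelium lay between 8737 and 9148 in irises. Each tissue also held transcripts of markers of the other. Pax6, a transcription factor of the iris, was at 1.58% of its iris level in liver, and the pigment gene Dct was at 8.35%, while Alb in iris was at 25.2% of its liver level and Hnf4a at 0.788%. Total counts were 2718518 to 6789648 per sample, and the members used up to 0.428 counts per base of exon in a single library (Slc2a1), against 1.70 in the highest of all genes of at least 500 bases.

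On this TPM scale the 10 genes did not share one order across the 5 groups. The share of all genes with each order below was not counted. Hif1a, Adm, Slc2a1, Pdk1, Car9, Ankrd37 and Ndrg1 had their highest mean TPM in iris, followed by explants, with lower means in every liver-derived group. For Ankrd37 the ranges of explants and livers overlapped. Bnip3 showed the opposite order, with 343.6 to 449.5 TPM in livers and 124.7 to 125.6 TPM in irises. Vegfa varied least, with group means between 9.61 and 18.9 TPM. Egln3, Ankrd37, Vegfa, Pdk1 and Car9 had their lowest group mean in the cultured spheroids.

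**Figure D1:**
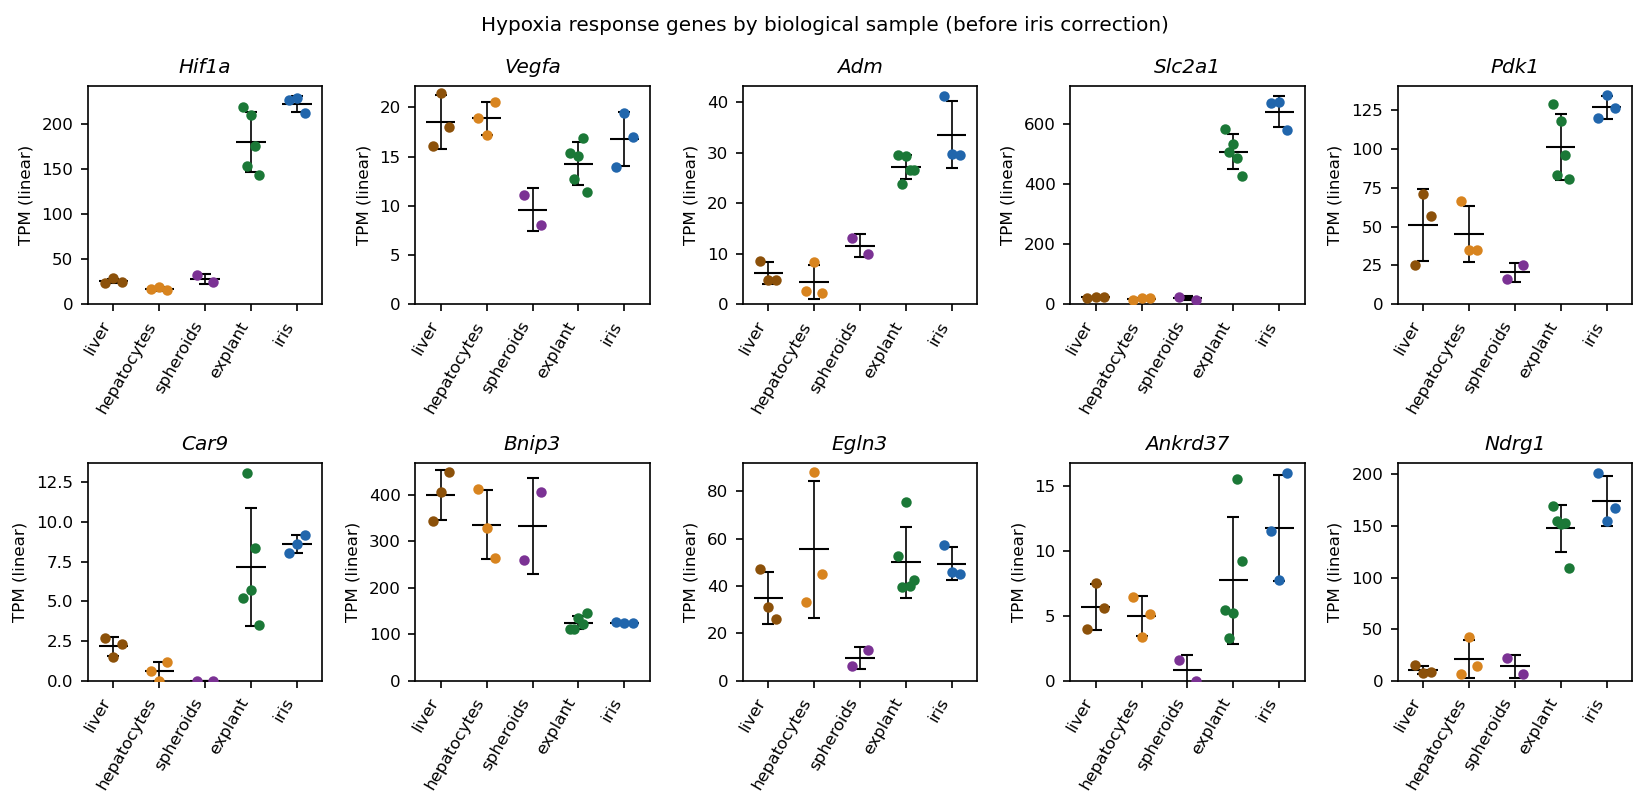
Each panel plots one gene, with TPM before iris correction on a linear axis and the 5 groups along the horizontal axis. Points are biological samples, and bars give the mean and 1 SD, drawn from 0 upwards. Slc2a1 lies between 428 and 673 TPM in all explants and irises and at 25.01 TPM or less in every other sample, whereas Bnip3 lies above 260 TPM only in livers, hepatocytes and spheroids.

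The step from fresh hepatocytes to spheroids compared these genes before and after culture as a 3-dimensional aggregate. No flat culture was sampled, so the aggregate form cannot be told apart from time in culture, medium and cell mix. Egln3, Vegfa, Pdk1 and Ankrd37 fell in spheroids relative to hepatocytes, and none of the 10 was called higher. A gene is called here when edgeR's quasi-likelihood test gives a Benjamini-Hochberg adjusted p below 0.05 and the log2 fold change is beyond 1 in size, and fold changes are given with 1 standard error (SE). Among all 17064 genes tested, 8.12% were called lower and 7.68% higher in this comparison. At an unadjusted p under 0.05, 2 members were higher (Adm and Hif1a) and 5 lower. With counts scaled by library size alone, the share of higher calls among all calls went from 48.6% to 67.7%, and the same 4 members were among the 4 called lower. From hepatocytes to spheroids, summed macrophage markers went from 171 to 291 TPM to between 620 and 819 TPM, those of stellate cells and fibroblasts from 120 to 175 TPM to between 314 and 361 TPM, erythroid markers from 337 to 342 TPM to between 12.8 and 19.1 TPM, and immediate early genes from 830 to 2078 TPM to between 436 and 469 TPM. Their part in the values of the members was not tested.

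Egln3 encodes the prolyl hydroxylase PHD3, an oxygen sensor that is itself a HIF target and feeds back on the alpha subunits. Its TPM were 33.1, 88.1 and 45.3 in the hepatocyte samples 1 to 3, and 6.28 and 13 in spheroids 1 and 2. Every spheroid sample lay below every hepatocyte sample. The log2 fold change was -2.86 ± 0.45 (SE, adjusted p = 0.000242). The counts behind it were 22 and 43 in spheroids, and each of the 6 technical spheroid libraries held between 6 and 18 of them.

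Vegfa encodes the main growth factor for vessels and, in liver, a signal from hepatocytes to the sinusoidal endothelium. Hepatocytes held 18.9, 17.2 and 20.5 TPM and spheroids 11.2 and 8.06 TPM. The groups did not overlap, and the fall was the most even of the 4, at -1.33 ± 0.21 on the log2 scale (SE, adjusted p = 0.000273). Adm, which encodes the vasodilating peptide adrenomedullin, had 2.59, 8.34 and 2.22 TPM in hepatocytes and 13.1 and 9.94 TPM in spheroids. Both spheroid samples were above all hepatocyte samples, but the log2 fold change of 1.04 ± 0.42 (SE) did not pass the test (adjusted p = 0.0759). It passed without hepatocyte sample 2, at 1.88 (adjusted p = 0.00206), and when counts were scaled by library size alone, at 1.32 (adjusted p = 0.0278).

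Pdk1 encodes a pyruvate dehydrogenase kinase that keeps pyruvate out of the mitochondrial oxidation pathway. Hepatocytes held 66.2, 34.8 and 34.9 TPM, and spheroids 16.3 and 25.04 TPM. The groups did not overlap and differed by -1.46 ± 0.39 on the log2 scale (SE, adjusted p = 0.0109), a call that was lost without spheroid sample 1 (log2 fold change -1.06, adjusted p = 0.146). Slc2a1, the glucose transporter GLUT1, held 15.8, 19.5 and 20.3 TPM in hepatocytes and 24.9 and 15.6 TPM in spheroids, so these groups overlapped, with a log2 fold change of -0.23 ± 0.18 (SE) that went to 0.06 when counts were scaled by library size alone.

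Ankrd37, a small ankyrin repeat protein gene, held 13, 6 and 8 counts in hepatocytes and 3 and 0 counts in spheroids, so its call rests on few reads. The ratio of summed CPM, hepatocytes over spheroids, was 6.38, with a 95% exact interval from 1.96 to 32.9 that covers counting error only. The edgeR test passed (adjusted p = 0.0322), and the call was lost without hepatocyte sample 1 (adjusted p = 0.0821), without hepatocyte sample 3 (adjusted p = 0.0593) and without spheroid sample 2 (adjusted p = 0.19). Car9, a carbonic anhydrase that faces the outside of the cell, held 2, 0 and 3 counts in hepatocytes and 0 in both spheroid samples. Both groups were at or under the limit of 3 counts that a count of 0 allows, so no fold is given. The test did not pass (adjusted p = 0.0905), and it passed without hepatocyte sample 2, the one at 0 (adjusted p = 0.0409).

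Hif1a itself, whose product is controlled mainly through its degradation, held 16.6, 18.9 and 15.3 TPM in hepatocytes and 32.2 and 24.6 TPM in spheroids. The spheroids lay above all hepatocytes, but the log2 fold change of 0.39 ± 0.16 (SE) did not pass (adjusted p = 0.0847). Bnip3, which marks damaged mitochondria for removal, ranged from 265 to 413 TPM in hepatocytes and from 261 to 406 TPM in spheroids, with a log2 fold change of -0.34 ± 0.23 (SE). Ndrg1, a stress-responsive gene of cell differentiation, was scattered, with 6.48, 41.9 and 14.6 TPM in hepatocytes and 21.8 and 6.35 TPM in spheroids. Its groups overlapped and the test did not pass (adjusted p = 0.222), although it passed without hepatocyte sample 1 (log2 fold change -1.39, adjusted p = 0.0363).

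**Figure D2:**
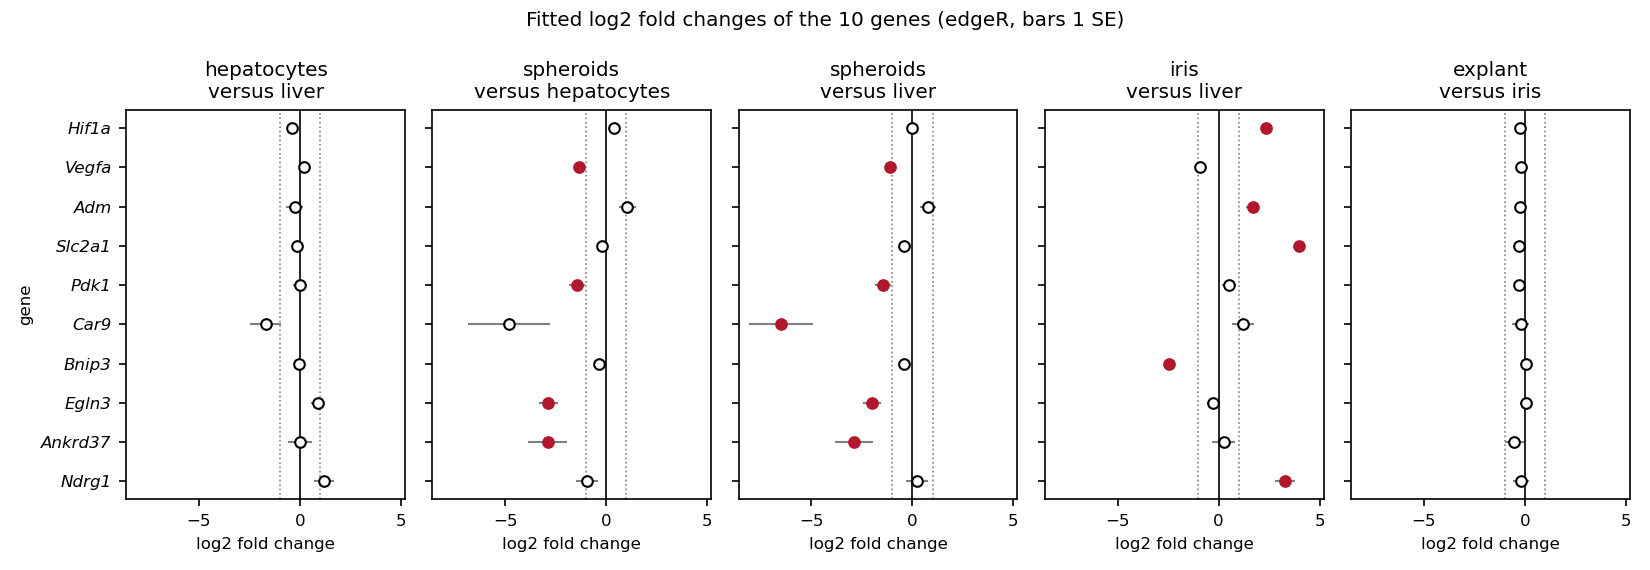
Each panel is one comparison fitted by edgeR, with the log2 fold change of the first-named group over the second on the horizontal axis and the 10 genes on the vertical axis. Filled red points passed the test, open points did not, bars are 1 SE, and dotted lines mark a log2 fold change of 1 in either direction. In spheroids the filled points lie to the left, whereas in iris they lie on both sides, with Slc2a1 at 3.97 and Bnip3 at -2.46.

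Against whole liver, the spheroids showed the same direction for these genes, with 5 of the 10 called lower and 0 higher. In edgeR 0 members passed an unadjusted p under 0.05 upwards and DESeq2 also called 0 higher. Of all genes tested, 12.4% were called lower and 7.93% higher. The spheroids are the group shared with the comparison above, so the 2 counts are not independent. Livers held 47.4, 31.2 and 26.3 TPM of Egln3, all above the spheroids, with a log2 fold change of -1.99 ± 0.45 (SE, adjusted p = 0.00297). Vegfa was at 16.1, 21.5 and 17.97 TPM in livers, a difference of -1.11 ± 0.21 (SE, adjusted p = 0.000892). That call sat close to the fold limit and went under it without liver sample 2 (-0.96), without spheroid sample 2 (-0.97) and with counts scaled by library size alone (-0.99). Pdk1 was at 25.3, 71.1 and 56.5 TPM in livers, and its lowest liver sample lay just above the highest spheroid sample. Its log2 fold change was -1.45 ± 0.39 (SE, adjusted p = 0.00892). Car9 held 9, 5 and 8 counts in livers and 0 in spheroids, which makes it at least 2.2-fold higher in liver, taking 3 counts per spheroid sample as the floor (adjusted p = 0.00571). Ankrd37 held 8, 15 and 12 counts in livers, and the ratio of liver to spheroids was 7.04 (95% exact interval 2.22 to 35.8, adjusted p = 0.0249).

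These calls on liver depended on single samples. Without spheroid sample 1 the Egln3 call was lost (log2 fold change -1.42, adjusted p = 0.0715), as was that of Pdk1 (-1.05, adjusted p = 0.126). Without spheroid sample 2 the Ankrd37 call was lost (adjusted p = 0.164), and without liver sample 2 as well (adjusted p = 0.0639). The remaining spheroid sample is then assumed to vary like the other groups. With only the technical library a of each sample, Car9 had an adjusted p of 0.0502. The other members did not pass against liver, with Adm at 0.77 ± 0.40 (SE, adjusted p = 0.142) and Hif1a at -0.02 ± 0.16 (SE). The median log2 fold change of the 10 genes was -0.75, and that of all genes was -0.08. Endothelial markers summed to 62.6 to 81.3 TPM in spheroids and 98.0 to 121 TPM in livers, and erythroid markers to 12.8 to 19.1 TPM and 611 to 764 TPM, with Hba-a2 at 0 in both spheroid samples. The part of these cells in the fall of the members was not tested.

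In the step before culture, the isolation of hepatocytes from liver, no member passed the test. In edgeR, 0 of the 10 were called in either direction and DESeq2 also called 0, which is near the background, where 5.41% of all genes were called lower and 1.27% higher. At an unadjusted p under 0.05, 2 members were higher (Egln3 and Ndrg1) and 2 lower (Car9 and Hif1a). Egln3 in hepatocytes was 0.87 ± 0.34 above liver on the log2 scale (SE, adjusted p = 0.0967). Ndrg1 in hepatocytes was at 1.18 ± 0.49 (SE, adjusted p = 0.119), against 15.1, 8.01 and 8.80 TPM in livers. Both values rested on hepatocyte sample 2, the highest for Egln3 and for Ndrg1. Without it they were 0.39 (adjusted p = 0.485) and 0.20 (adjusted p = 0.809), while without hepatocyte sample 1 both passed (1.15, adjusted p = 0.0332, and 1.62, adjusted p = 0.0186). Hif1a was at 23.99, 28.9 and 24.5 TPM in livers, above all hepatocyte samples, but did not pass (log2 fold change -0.41 ± 0.15 (SE), adjusted p = 0.0734). Car9 held 9, 5 and 8 counts in livers against 2, 0 and 3 in hepatocytes, a ratio of 3.75 (95% exact interval 1.38 to 12.7) that did not pass either (adjusted p = 0.159). The other 6 members lay between -0.27 and 0.22 on the log2 scale. Immediate early genes such as Fos and Egr1 summed to 830 to 2078 TPM in hepatocytes and 84.2 to 140 TPM in livers, macrophage markers to 171 to 291 TPM and 535 to 1188 TPM, and their part in the values of the members was not tested.

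The iris, the tissue on which the spheroids grow, carried much more of several members than liver. Slc2a1, Ndrg1, Hif1a and Adm were called higher in iris and Bnip3 lower. That is 4 of 10 higher and 1 of 10 lower, where 31.6% of all genes were called higher and 19.7% lower, so the counts are near the background of 2 unlike tissues. Slc2a1 was at 670, 673 and 582 TPM in irises and 21.9, 24.5 and 25.01 TPM in livers, with a log2 fold change of 3.97 ± 0.16 (SE, adjusted p = 1.55e-11). Its mean in liver was 3.71% of that in iris, within the 1.00% to 8.35% that the 8 iris markers reached in liver, and the part of shared transcripts in the liver value was not tested. Ndrg1 was at 202, 155 and 167 TPM in irises (log2 fold change 3.27 ± 0.50 (SE), adjusted p = 2.51e-05). Hif1a was at 226, 228 and 212 TPM (log2 fold change 2.32 ± 0.15 (SE), adjusted p = 1.34e-09), and its mean in liver was 11.6% of that in iris.

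Adm was at 41.1, 29.7 and 29.6 TPM in irises against 8.61, 4.78 and 4.89 TPM in livers, with no overlap (log2 fold change 1.69 ± 0.34 (SE), adjusted p = 0.000328). Bnip3 was at 126, 125 and 125 TPM in irises, about as even as the samples came, and at 344, 406 and 449 TPM in livers. Its log2 fold change was -2.46 ± 0.22 (SE, adjusted p = 5.63e-08). Pdk1 was above liver in every iris on the TPM scale, at 120, 134 and 126 TPM, but its fitted log2 fold change of 0.52 ± 0.33 (SE) did not pass (adjusted p = 0.166). Car9, at 8.07, 8.64 and 9.21 TPM in irises, did not pass either (adjusted p = 0.0552), but passed in DESeq2 (adjusted p = 0.0455) and with the 2 groups alone (adjusted p = 0.0115). Vegfa passed on p but not on fold, at -0.92 ± 0.18 (SE, adjusted p = 0.000217), and went past the fold limit without iris sample 2 (-1.04) or liver sample 1 (-1.05).

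The scaling of the counts mattered in this comparison. Under the TMM scaling of edgeR the median log2 fold change of all genes between iris and liver was 0.25, and under library size alone it was 0.82. The 5 calls kept their directions under both. Under library size alone Pdk1 (1.1, adjusted p = 0.00536) and Car9 (1.77, adjusted p = 0.00748) were also called higher, Vegfa went to -0.35 (adjusted p = 0.0985), and Egln3 went from -0.26 to 0.30 without passing either way. The share of higher calls among all calls went from 61.5% to 77.6%.

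Explants, which hold engrafted spheroids and their iris, gave no member that passed the test against iris alone. In edgeR 0 of the 10 were called, where 6.07% of all genes were called higher and 0.24% lower, and DESeq2 called 0 as well. At an unadjusted p under 0.05 Slc2a1 alone passed, downwards. Slc2a1 ranged from 428 to 585 TPM in the explants, with a median of 508 TPM, and the lowest iris lay within that range. Its log2 fold change was -0.27 ± 0.12 (SE, adjusted p = 0.223). Hif1a ranged from 143 to 218 TPM in explants (median 175 TPM), and its log2 fold change was -0.25 ± 0.12 (SE, adjusted p = 0.266). Adm lay between 23.7 and 29.6 TPM in explants (median 26.6 TPM), just under all 3 irises, at -0.24 ± 0.26 (SE, adjusted p = 0.674). Bnip3 lay between 112 and 145 TPM in explants (median 123 TPM), around the level of the irises. The fitted log2 fold changes of all 10 lay between -0.52 (Ankrd37) and 0.07 (Egln3). The median over the 10 genes was -0.22, and that over all genes was -0.02.

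To set the graft itself beside liver and cultured spheroids, the iris part was subtracted from each explant as the study's methods describe, with the fraction of iris that the deposited values imply. That fraction was 82% in explant 1, 68% in 2, 81% in 4, 72% in 5 and 59% in 6. Because iris carries so much of most members, the subtraction removed a median of 75.6% to 178% of the explant TPM, depending on the gene. Where it removed more than 100% the corrected value fell below 0 and was set to 0. This was so for Ankrd37 in 3 of 5 explants, for Car9 in 3 and for Pdk1 in 1. Small errors in the iris fraction therefore become large in the remainder.

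**Figure D3:**
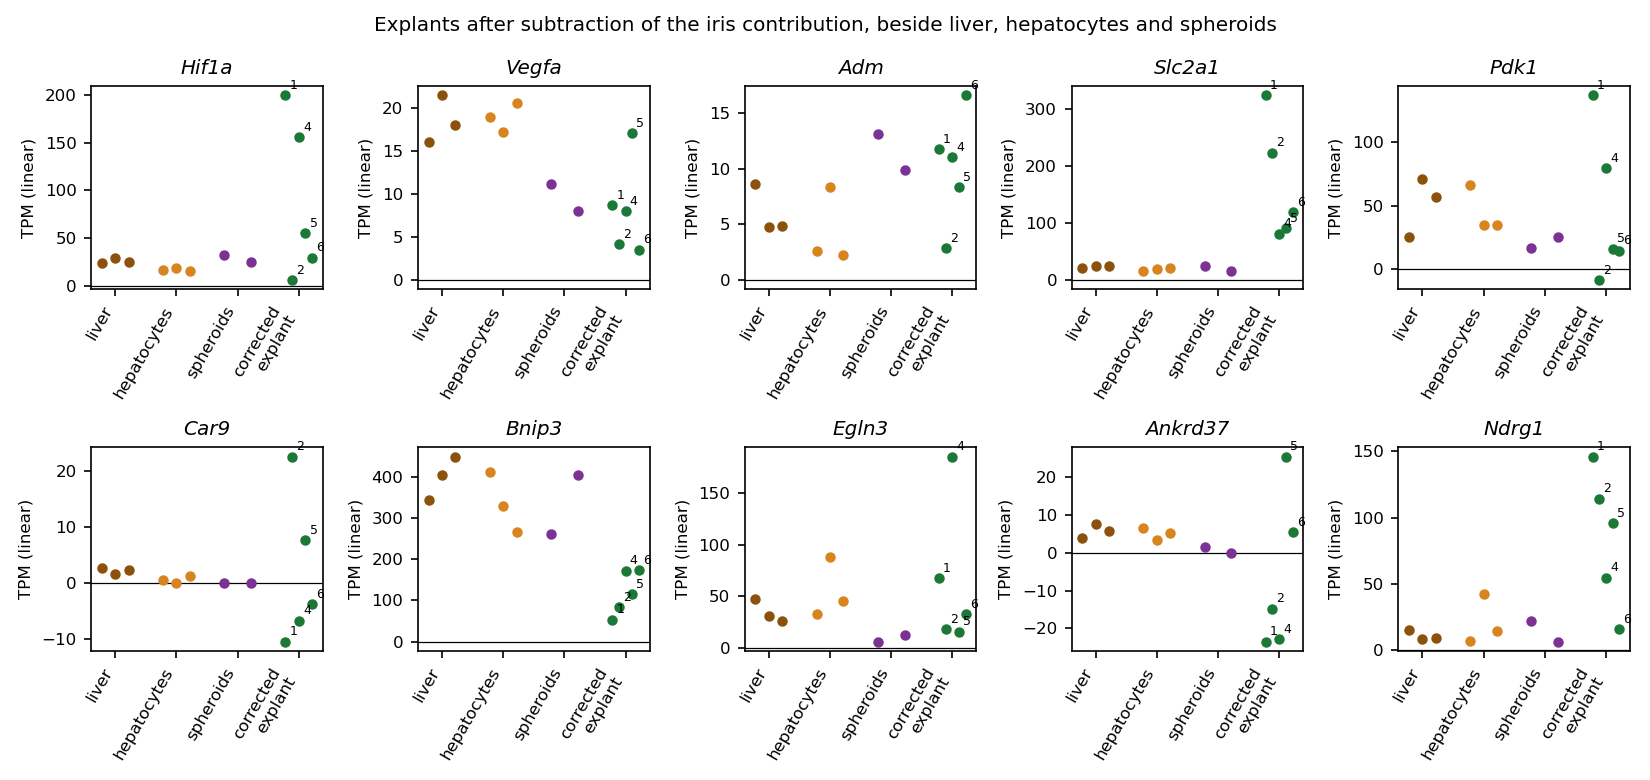
Each panel plots one gene on a linear TPM axis for livers, hepatocytes, spheroids and explants after subtraction of iris, shown before negative values were set to 0. Points are samples, the numbers beside the explants are their labels, and the horizontal line is 0. The explants spread from 5.86 to 199.9 TPM for Hif1a and from -23.5 to 25.3 TPM for Ankrd37, whereas Bnip3 lies between 53.2 and 173.5 TPM in all 5, below every liver, hepatocyte and spheroid sample.

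In the corrected explants, tested with limma on log2(TPM + 1), Slc2a1 was higher and Bnip3 lower than in cultured spheroids. Of all 23508 genes tested, 9.52% were called higher and 2.79% lower, and the median log2 fold change of all genes was 0.50. Corrected Slc2a1 ranged from 81.5 to 324 TPM in the explants, with a median of 119 TPM, and was above both spheroid samples in all 5. The log2 fold change was 2.82 ± 0.47 (SE, adjusted p = 0.00195). Corrected Bnip3 ranged from 53.2 to 174 TPM, with a median of 116 TPM, and was below both spheroid samples in all 5, at -1.57 ± 0.41 (SE, adjusted p = 0.0247). The Bnip3 call was lost when either spheroid sample was left out (adjusted p = 0.0712 without sample 1 and 0.289 without sample 2).

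The 5 genes that fell in spheroids did not pass between corrected explants and spheroids in the reported fit. Egln3 was at 15.9 to 186 TPM in the explants, above both spheroid samples in all 5, with a log2 fold change of 2.08 ± 0.79 (SE, adjusted p = 0.107). It passed with the iris fraction 5 points lower (2.16, adjusted p = 0.0439) and without iris sample 1 (2.46, adjusted p = 0.0369). Vegfa was at 3.55 to 17.04 TPM, on both sides of the spheroids, at -0.36 ± 0.48 (SE). Pdk1 was at 0 to 137 TPM and could not be placed (-0.11 ± 1.39 (SE)). Car9 and Ankrd37 had medians of 0. Ndrg1 was at 2.41 ± 0.84 (SE, adjusted p = 0.0818), and passed with the iris fraction 5 points lower (2.78, adjusted p = 0.0151), without explant 6 (2.92, adjusted p = 0.0129) and without iris sample 1 (3.09, adjusted p = 0.0145).

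Against liver, Slc2a1 and Ndrg1 were called higher in corrected explants and Bnip3 lower, where 15.8% of all genes were called higher and 5.06% lower and the median of all genes was 0.56. Slc2a1 was at 2.56 ± 0.41 (SE, adjusted p = 0.00107) and Bnip3 at -1.85 ± 0.36 (SE, adjusted p = 0.00307). Corrected Ndrg1 ranged from 15.7 to 146 TPM (median 95.6 TPM), with each explant above the highest liver, and its log2 fold change was 2.61 ± 0.73 (SE, adjusted p = 0.0226). Leaving out liver sample 2 or 3 ended the Ndrg1 call (adjusted p = 0.0912 and 0.086). Vegfa lay at -1.24 ± 0.42 (SE, adjusted p = 0.0527), and Hif1a at 0.95 ± 0.85 (SE, adjusted p = 0.432). Vegfa passed under 5 of 22 alternatives, among them without explant 5 (-1.52, adjusted p = 0.0101) and without iris sample 1 (-2.35, adjusted p = 0.00761). Hif1a passed without explant 2 (1.68, adjusted p = 0.0444) and with the iris fraction 5 points lower (1.72, adjusted p = 0.0179), and lay at -0.56 with it 5 points higher. Adm was at 0.54 ± 0.53 (SE, adjusted p = 0.475), and passed without iris sample 1 (1.64, adjusted p = 0.0174).

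The calls of Slc2a1 and Ndrg1 depended on the iris that was subtracted. With the iris fraction 5 points higher, Slc2a1 against liver went to -0.54 ± 1.64 (SE, adjusted p = 0.832), and with 5 points lower it was 3.24 ± 0.28 (SE, adjusted p = 1.55e-05). When iris sample 3, the lowest in Slc2a1, was left out of the iris mean, Slc2a1 was at 0.40 against liver (adjusted p = 0.845) and at 0.65 against spheroids (adjusted p = 0.788). For Ndrg1 against liver, leaving out iris sample 2, its lowest, gave 1.38 (adjusted p = 0.379). Bnip3 against liver was called lower under all 22 alternatives, between -2.59 and -1.60. Markers of iris and pigment epithelium summed to 309 to 3690 TPM in corrected explants, against 541 to 555 TPM in livers, and macrophage markers to 2452 to 6238 TPM, against 535 to 1188 TPM. Hepatocyte markers summed to 16026 to 23318 TPM, against 13607 to 15275 TPM in livers. Immediate early genes summed to 571 to 1715 TPM, against 84.2 to 140 TPM, and erythroid markers to 29.6 to 248 TPM, against 611 to 764 TPM. Their part in the corrected values of the members was not tested.

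**Figure D4:**
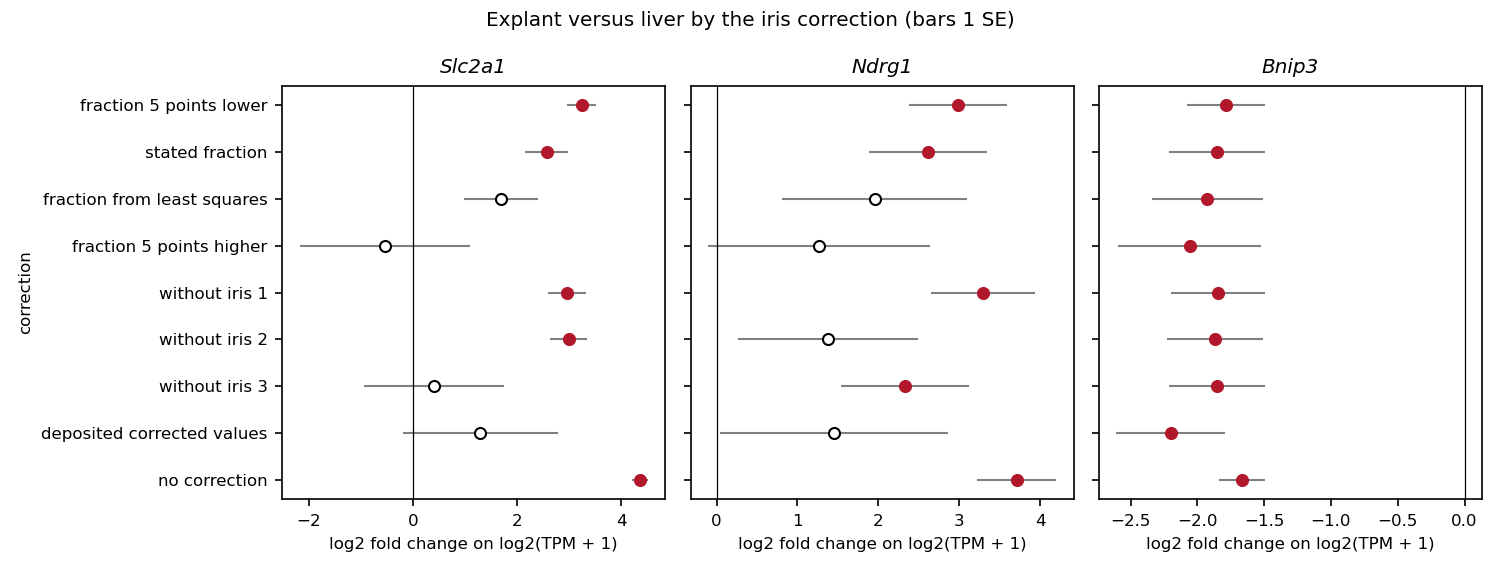
The horizontal axis gives the log2 fold change of corrected explants over livers on the log2(TPM + 1) scale for Slc2a1, Ndrg1 and Bnip3, and the vertical axis the way the iris contribution was subtracted. Points are fitted values, bars are 1 SE, and filled red points passed the test. Slc2a1 moves from 4.36 without correction to -0.54 with an iris fraction 5 points higher, while Bnip3 stays below -1.6.

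Other genes of the pathway were taken from 7 hand-written lists of 63 genes, of which 61 were tested in the counts. In spheroids relative to hepatocytes 10 of them rose and 5 fell, beside 7.68% of all genes that were called higher and 8.12% lower, so the number that fell is near the background. The median log2 fold change of these 61 was 0.25, while the median of the 10 members was -1.14 and that of all genes 0.00. The genes that rose included Ddit4, a brake on mTOR signalling, from 3.3 to 6.4 TPM in hepatocytes to 55.9 and 26.7 TPM in spheroids, with a log2 fold change of 2.75 (adjusted p = 0.000124). Hilpda, which blocks the breakdown of lipid droplets, rose from at most 26.1 TPM in hepatocytes to 111.0 and 107.3 TPM in spheroids, by 1.92 on the log2 scale (adjusted p = 1.3e-05). P4ha2, a collagen prolyl hydroxylase, rose by 2.11 (adjusted p = 2.53e-06), and Hmox1, which degrades haem, by 1.66 (adjusted p = 3.92e-05). Lox, a collagen cross-linking enzyme, also passed, but its 2 spheroid samples were at 1.90 and 22.3 TPM.

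The pathway genes that fell beside the members were Zfp395 (log2 fold change -2.62, adjusted p = 0.000222), Ndufa4l2, a mitochondrial protein (-1.96, adjusted p = 0.00516), Aldoc (-1.25, adjusted p = 0.000755), Kdr (-1.93, adjusted p = 0.00425) and Tek (-2.48, adjusted p = 0.00156). Kdr and Tek are receptors of endothelial cells and stand in the endothelial marker list too. The summed endothelial markers, Kdr and Tek included, were at 28.8 to 66.2 TPM in hepatocytes and 62.6 to 81.3 TPM in spheroids. The part of endothelial cells in the fall of Kdr and Tek was not tested. Of 18 genes of glycolysis and lactate, 2 rose in spheroids (Pkm and Pfkp) and 1 fell (Aldoc). Pfkp was at 20.6 and 4.54 TPM in spheroids and at 3.72 to 4.77 TPM in hepatocytes, so its groups overlapped. Of 9 oxygen sensing genes and HIF subunits 0 passed in edgeR. The 4 members that fell thus stood beside 5 other pathway genes that fell and 10 that rose.

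**Figure D5:**
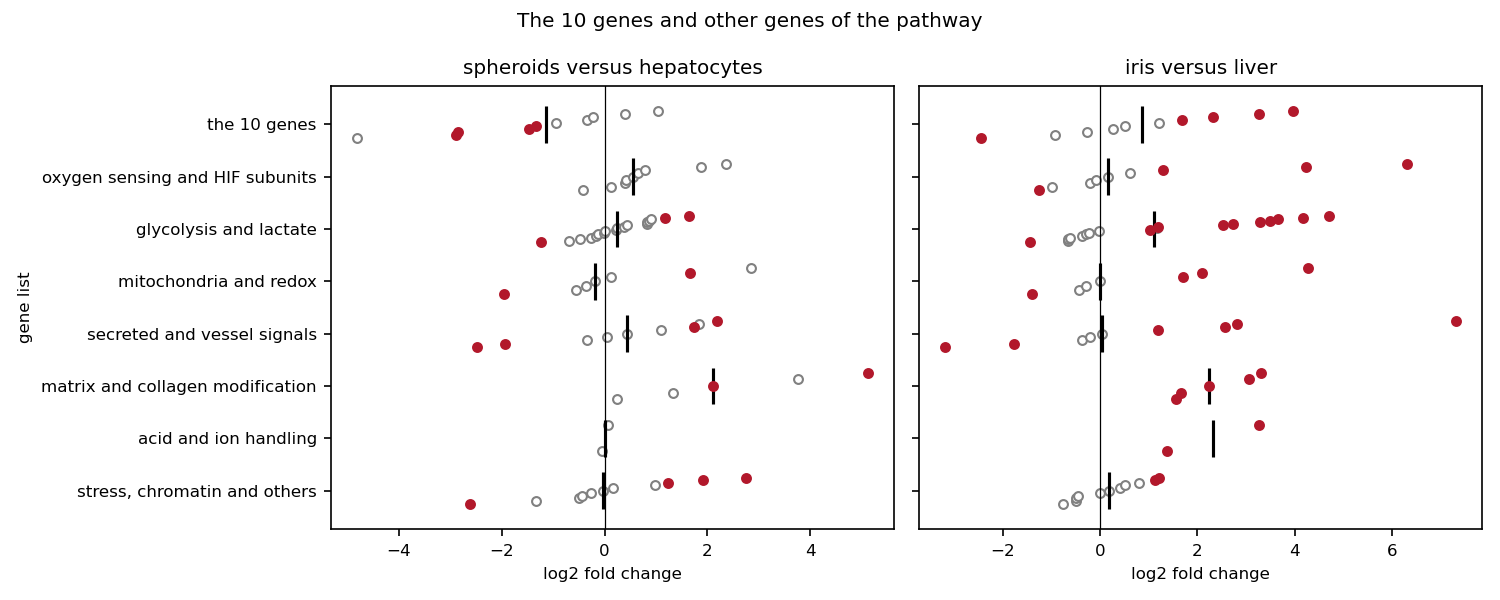
The horizontal axis gives the log2 fold change fitted by edgeR, the vertical axis the 10 genes and the 7 lists of other pathway genes, and each point is one gene. Filled red points passed the test, open points did not, and vertical bars are list medians. In spheroids the median of the 10 genes lies at -1.14 and that of the matrix genes at 2.11, while in iris glycolysis genes have a median of 1.1.

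In iris relative to liver, 28 of the 61 other pathway genes were called higher and 5 lower, where 31.6% of all genes were called higher and 19.7% lower. Of the glycolysis list 9 were higher and 1 lower, with Hk1 at 4.18 (adjusted p = 2.96e-10) and Pkm at 3.28 (adjusted p = 1.2e-09) beside Slc2a1, the transporter that feeds them, and Ldha lower at -1.44 (adjusted p = 4.78e-08). Reads that map to several places were not counted, so genes with near-identical copies elsewhere in the genome, such as Gapdh and Ldha, are uncertain. In isolated hepatocytes relative to liver 0 of the 61 rose and 5 fell, among them the endothelial receptors Kdr and Flt1, which is near the background of 1.27% and 5.41%.

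In corrected explants relative to spheroids, 9 of the 60 other pathway genes that were tested there were called higher and 8 lower (9.52% and 2.79% of all genes), and relative to liver 15 higher and 6 lower (15.8% and 5.06% of all genes). Hk1, which iris holds at high level like Slc2a1, was higher than in spheroids by 4.17 (adjusted p = 0.000344), and 5 glycolysis genes that iris and liver share, among them Eno1 (-1.90, adjusted p = 0.00456) and Gpi1 (-2.02, adjusted p = 0.0142), were lower. Pdk3, a relative of Pdk1, was higher by 2.88 (adjusted p = 0.00719), with 90.0 to 97.5 TPM in irises. All these calls rest on the same iris subtraction as that of Slc2a1. How they change with the iris fraction is not reported here, so they are uncertain.

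For each member, the gene outside the set with the most similar profile was sought over the 16 samples, by the root mean square difference of log2 CPM (reads scaled by library size and TMM factor) after centring each gene. Slc2a1 was closest to Gja1, a gap junction gene, at 0.15, and Hif1a to Cnpy4 at 0.16. Bnip3 was closest to Chuk at 0.19, Vegfa to Ndufb10 at 0.20 and Adm to Cenpc1 at 0.25. Pdk1 (Gm2011, 0.28), Egln3 (Slc25a21, 0.40) and Car9 (Klk8, 0.48) had less similar partners. Ankrd37 was closest to Zfp395, another pathway gene, at 0.58. The partner of Ndrg1 was Gm17035 at 0.28, which overlaps 419 bases of Ndrg1 exons on the opposite strand.

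Counting without strand means that reads in such overlaps go to both genes. Exons on the opposite strand covered 24.9% of the exon length of Ankrd37 with Lrp2bp and 4.06% with Ufsp2, 9.29% of Car9 with Gm12454, 6.36% of Ndrg1 with Gm17035 and 2.08% with Gm2895, 5.6% of Hif1a with Gm15283 and 2.99% of Slc2a1 with Gm12868, and reads of these stretches cannot be assigned to one strand. In all samples together Ankrd37 had 262 counts, Lrp2bp 148 and Ufsp2 6757, and how many of them lay in the shared stretches cannot be read from the counts per gene. Vegfa, Adm, Pdk1, Bnip3 and Egln3 overlapped no exon of another gene.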

How the data were processed

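The 48 Smart-seq3 libraries were 3 technical libraries of each of 16 samples. The authors aligned reads with TopHat2 to GRCm38, removed duplicates with UMI-tools and SAMtools, and made the deposited counts with featureCounts 1.4.6-p5 over exons, without strand or multi-mapped reads and with reads in overlapping genes counted for each. The authors calculated TPM from the counts summed over libraries. In the deposited iris-corrected values (a signal in units of TPM), the authors subtracted the iris mean times a fraction F from the explant TPM and divided by 1 minus F, except in the column of explant 4, which takes another form. F was solved from these columns and applied alike to all 5 explants here, with values below 0 set to 0.

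Counts were summed per sample and tested with edgeR 4.0.16 in R 4.3.3 (filterByExpr, TMM, one quasi-likelihood fit of 5 groups), and corrected explants with limma 3.58.1 (trend, log2(TPM + 1), mean of at least 1 TPM, 4 groups). Standard errors are those of the fitted log2 fold changes. Both tests were checked on simulated data. These data held no iris mixture and no subtraction, so the check does not cover the error that the iris correction adds. Genes were named by rule: the 10 members, their closest profile each, and members of the listed pathways. The members and lists were chosen with earlier results of these data known. The 23 pairs of samples with the same number correlated between -0.12 and 0.12, 2 of them above 0.1. Deviations from means of so few samples are tied to each other, so this cannot settle whether numbers pair samples. Samples were treated as unpaired in the reported fits. The alternatives were DESeq2 1.42.0, other scalings, filters, pseudocounts and iris fractions, 2 groups alone, a replicate block, 1 technical library, and each sample left out in turn. Intervals and floors cover counting error only. Single cells, imaging and the table of library counts without gene names were not used here. One gene of the pathway lists is not reported here by name or value.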

Additional observations from a re-analysis of the deposited data

Results flagged for a closer look

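Of 20 sets of 5 explant values (10 genes, TPM before and after iris correction), 1 held a sample far from the others by Dixon's criterion for 5 samples (0.71), and chance alone flags about 1 in 20 such sets. Corrected Ankrd37 was 25.3 TPM in explant 5, while the next highest explant was at 5.50 TPM and the lowest at 0, a gap of 0.783 of the range. The flag rests on the 3 explants whose values below 0 were set to 0: before that step the gap was 0.406 of the range, under the criterion. Explant 5 had 51 counts of Ankrd37, and the other explants had 9 to 27.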

How the results depend on the processing

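Of 1161 comparisons of a member's log2 fold change with an alternative, 1017 kept direction and call. Spheroids versus hepatocytes kept 3 to 6 called members in all settings, iris versus liver 5 to 7 and explant versus iris 0. Spheroids versus liver gave 3 called members instead of 5 with at least 10 counts in every sample, because Car9 and Ankrd37 were not tested there, and 3 to 5 with one sample left out. Hepatocytes versus liver gave 0 to 2 with one sample left out, the 2 being Egln3 and Ndrg1 without hepatocytes 1.

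Corrected explants versus spheroids gave 2 called members in the reported fit, 9 with TPM before correction, 4 with the iris fraction 5 points lower, 0 with it 5 points higher, and 1 with the deposited corrected values, with the fraction from least squares or with the 2 groups alone. Leaving out one sample gave 1 to 3, and leaving one iris out of the iris mean, an alternative chosen after seeing the data, gave 1 to 4. Corrected explants versus liver gave 3 in the reported fit, 7 before correction and 1 with the deposited corrected values or the least squares fraction. Leaving out one sample, irises included, gave 2 to 5. Directions turned, with a call in one of the fits, for Slc2a1 with the fraction 5 points higher (-0.29 versus spheroids, -0.54 versus liver) and, before correction, for Adm (1.17) and Pdk1 (2.24) versus spheroids and for Pdk1 (1.07) and Car9 (1.27) versus liver. Another 73 changes of sign, over all 7 comparisons, had no call in either fit, among them Vegfa versus spheroids before correction (0.53, adjusted p = 0.0272) and Hif1a with the fraction 5 points higher (-0.69 versus spheroids, -0.56 versus liver). Before correction the explant still holds its iris RNA. The cause of the other changes was not tested.

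With a replicate block the counts were 0, 4, 5, 5 and 0 in the 5 comparisons of counts, 2 for corrected explants versus spheroids and 4 for corrected explants versus liver, where Ndrg1 was lost (adjusted p = 0.0523) and Vegfa (-1.43, adjusted p = 0.0319) and Ankrd37 (-2.69, adjusted p = 0.0215) were gained. Calls over all genes moved by over 1.5 times as follows. Hepatocytes versus liver went from 1140 to 333 with the 2 groups alone, 383 with at least 10 counts in every sample, 560 with library a, 2251 without fold limit and 592 to 721 without hepatocytes 2 or 3 or liver 1. At least 10 counts gave 1605 (of 2695) in spheroids versus hepatocytes, 2014 (of 3469) versus liver, 4471 (of 8754) in iris versus liver and 642 (of 1077) in explant versus iris, and no fold limit gave 4908 and 6235 in the first 2 of these. Corrected explants versus spheroids went from 2896 to 9066 before correction, 4849 with the block, 1208 with the 2 groups alone and 1638 and 1291 without spheroids 1 and 2, and versus liver from 4909 to 10328, 3047 with the 2 groups alone and 3031 and 3111 without liver 2 and 3. Low counts limit Car9 (0 to 9 per liver-derived sample) and Ankrd37 (0 to 15), and 2 spheroid samples limit every spheroid comparison.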
